A study of Mus musculus with 12 samples.

Results

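Cell cycle genes were followed in mouse skin with and without fibrosis, as a named set of 48 genes that covers the start of the cycle, DNA replication and mitosis. The members are listed by name, with earlier results of these data known, and all 48 were found among the 23359 genes of the deposited expression table. They were divided into 7 genes of cycle entry (cyclins D and E, Cdk2 and the E2F factors), 14 replication genes and 27 mitosis genes. All 48 passed the filter for testing, which was at least 1 FPKM in at least 3 of the 12 libraries and kept 13761 genes. FPKM counts the fragments of a gene divided by its transcript length and by the mapped fragments of each library.

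Whole skin of C3H/HeJ mice was sampled in 4 groups of 3 libraries. Treated skin at 20 weeks (T_20W) carries the label CD36highCD90+ Treated, and the study's design text says that fibroblasts of this kind were transplanted into fibrotic skin. Fibrotic skin was taken at 20 weeks (F_20W) and at 6 weeks (F_6W), both with no treatment named, and normal skin (N) has no time label. All groups share the strain, the tissue and the library method. The labels name neither the agent that made the skin fibrotic, nor the date from which weeks were counted, nor the source, number or survival of the transplanted cells. Nothing states that a group's 3 libraries came from separate animals, so the spread behind each p-value is that between libraries and may be technical.

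Cells that leave quiescence make D cyclins and then cyclin E, whose kinase partners release the E2F factors from the retinoblastoma protein and switch on the genes for DNA synthesis. The MCM helicase is loaded on origins by Cdc6 and Cdt1 and is activated with Cdc45 and the GINS complex, while ribonucleotide reductase and thymidylate synthase supply nucleotides. Later in the cycle Mybl2 and Foxm1 drive genes for the kinases, motors and centromere proteins that divide the chromosomes. In skin, most dividing cells are found among basal keratinocytes, in the growing hair follicle and, after injury, in wound epithelium and stroma. In whole skin, fewer cycling cells and less RNA per cycling cell cannot be told apart.

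The 12 libraries were alike in 2 measures, with 12658 to 13364 genes at 1 FPKM or more and a median of 9.63 to 10.3 FPKM over the tested genes. They were not alike in summed FPKM, taken without short RNAs and without high genes listed at 0 in a library. The sum was 462751 to 548995 in treated skin and 600092 to 631253 in 20-week fibrotic skin. It was 592723 to 679790 in 6-week fibrotic skin and 471273 to 505148 in normal skin. Basal keratinocyte markers, which define epidermis, were present in every library with a summed level of 5837 to 9278 FPKM. Skeletal muscle markers summed to anything between 97.0 and 9519 FPKM and did not follow the groups. The number of fragments behind a value is unknown, so no counting error is given.

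Promoter sequences are shown for 6 members because the roles differ in the motifs just upstream of their genes. Whether these motifs bear on the levels in these data was not tested. RefSeq promoters of assembly GRCm38.p6 were matched by symbol for 37 of the 48 members, and windows from 250 bases before to 50 bases after the start were searched on both strands. The motifs were the CHR (TTTGAA or TTCGAA), the CCAAT box (CCAAT) and an E2F site (TTCCCGC, with the variants TTGGCGC, also TTGCCGC, and also TTCGCGC). None of these strings contains another, but their matches can overlap, as where ATTGG runs into TTGGCGC. Each sequence gives the 170 bases before the start, 5′ to 3′ along the gene, with every match in capitals.

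Genes with E2F letters are shown by the entry gene E2f8, an E2F repressor, at chr7:48881597-48881766 (minus strand), and by the replication gene Mcm5, a helicase subunit, at chr8:75109339-75109508 (plus strand). Both had a log2 fold change above 1 in 6-week fibrotic skin. Mcm6 also has E2F letters, but it was not called in any comparison in the fit of all libraries. Mcm2 rose by 0.99 on the log2 scale at 6 weeks without E2F letters in its window.
E2f8: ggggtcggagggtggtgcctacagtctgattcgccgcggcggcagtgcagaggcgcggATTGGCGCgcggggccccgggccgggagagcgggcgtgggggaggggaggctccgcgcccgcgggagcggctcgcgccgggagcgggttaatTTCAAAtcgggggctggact
Mcm5: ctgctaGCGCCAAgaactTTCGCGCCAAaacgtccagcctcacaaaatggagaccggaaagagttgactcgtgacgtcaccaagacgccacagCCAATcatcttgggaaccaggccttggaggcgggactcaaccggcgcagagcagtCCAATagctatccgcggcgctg
E2F letters stand in both of the sequences shown. In E2f8 they overlap a CCAAT box, and CHR letters lie nearer the start. Mcm5 has 3 E2F matches near the far end, of which the last 2 overlap, and CCAAT boxes nearer the start.

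The mitosis side is shown by 4 genes. Cdc20, an activator of the anaphase-promoting complex, lies at chr4:118437344-118437513 (minus strand). Cdk1, the kinase that starts mitosis, lies at chr10:69352913-69353082 (minus strand). Top2a, the topoisomerase that untangles replicated DNA, lies at chr11:99024190-99024359 (minus strand). Ttk, a spindle checkpoint kinase whose level against normal skin was unlike that of the others, lies at chr9:83834519-83834688 (plus strand).
Cdc20: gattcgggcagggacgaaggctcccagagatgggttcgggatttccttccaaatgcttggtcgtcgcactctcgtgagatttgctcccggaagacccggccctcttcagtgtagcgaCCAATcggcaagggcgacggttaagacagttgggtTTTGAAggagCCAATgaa
Cdk1: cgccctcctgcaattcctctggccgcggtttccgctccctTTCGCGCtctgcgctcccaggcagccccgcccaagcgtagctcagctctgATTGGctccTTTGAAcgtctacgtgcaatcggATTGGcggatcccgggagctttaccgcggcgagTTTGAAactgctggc
Top2a: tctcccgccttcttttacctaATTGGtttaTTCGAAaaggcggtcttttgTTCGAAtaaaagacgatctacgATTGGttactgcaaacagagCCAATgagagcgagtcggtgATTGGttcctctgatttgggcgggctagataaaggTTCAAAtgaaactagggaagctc
Ttk: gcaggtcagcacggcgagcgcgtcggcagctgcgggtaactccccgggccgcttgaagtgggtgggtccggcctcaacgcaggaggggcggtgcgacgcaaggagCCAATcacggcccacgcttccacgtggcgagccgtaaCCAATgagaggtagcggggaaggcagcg
Cdc20, Cdk1 and Top2a hold CHR letters within this stretch together with CCAAT boxes. In Ttk the stretch holds CCAAT boxes, and its CHR letters lie elsewhere in the window.

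Over the windows, CHR letters were found in 16 of 21 mitosis genes (76.2%), 3 of 12 replication genes (25.0%) and 1 of 4 entry genes (25.0%), beside 21.7% of all 27025 genes with a promoter. E2F letters were found in 4 of 21 mitosis genes (19.0%), 8 of 12 replication genes (66.7%) and 2 of 4 entry genes, beside 10.9% of all genes. CCAAT boxes were found in 18 of 21 mitosis genes (85.7%), 9 of 12 replication genes (75.0%) and 2 of 4 entry genes, beside 41.1% of all genes. These matches are a description of the letters, and no test was made.

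In level, Pcna, the sliding clamp of the replication fork, was the most abundant member in every group, at 84.8 FPKM in treated skin, 73.3 FPKM in 20-week fibrotic skin, 99.7 FPKM in 6-week fibrotic skin and 72.7 FPKM in normal skin on average. Ccne2, a cyclin E, was the least abundant, at 1.25 FPKM in treated skin, 1.15 FPKM in 20-week fibrotic skin, 1.34 FPKM in 6-week fibrotic skin and 0.866 FPKM in normal skin. The median member stood at 11.4 FPKM in treated skin, 9.56 FPKM in 20-week fibrotic skin, 13.5 FPKM in 6-week fibrotic skin and 7.21 FPKM in normal skin. Normal skin thus held measurable RNA of all members, with values from 0.745 FPKM upward.

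**Figure D1:**
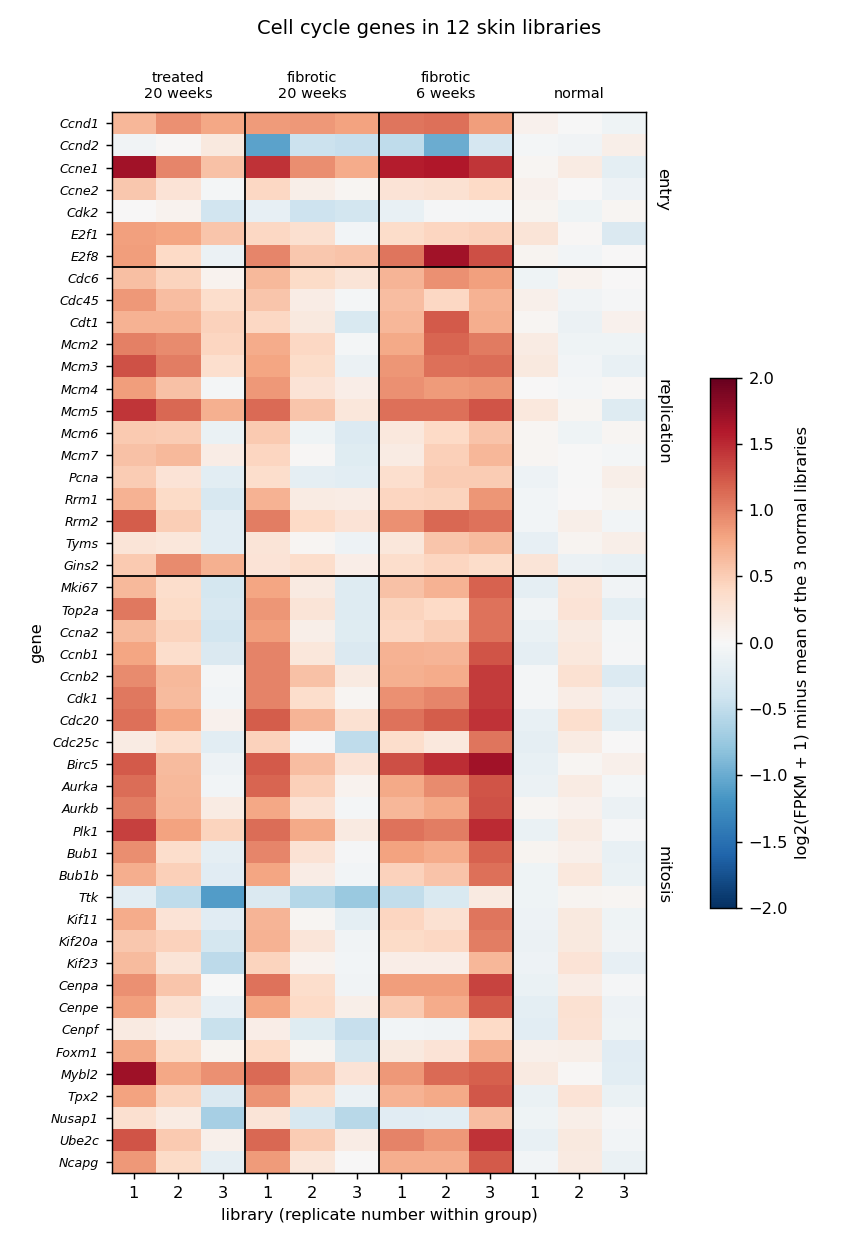
Heat map of the 48 genes (rows, by role) in the 12 libraries (columns, by group); colour is log2(FPKM + 1) minus the mean of the 3 normal libraries. Most rows are red in all 3 libraries of 6-week fibrotic skin, while in both 20-week groups replicate 1 is the reddest and replicate 3 the palest; Ccnd2 and Ttk stand out in blue.

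The comparison of 6-week fibrotic with normal skin asks what the cell cycle genes did early in the fibrosis. Replication and mitosis genes were higher together: 27 of the 48 members rose and 1 fell at an adjusted p under 0.05 (limma on log2(FPKM + 1), Benjamini-Hochberg over 13761 genes). Among all tested genes 17.6% rose and 21.7% fell, and the median member changed by 0.82 on the log2 scale against -0.05 for the median gene. By role, 3 of 7 entry genes, 10 of 14 replication genes and 14 of 27 mitosis genes rose. The 3 libraries of 6-week skin lay above all 3 normal libraries for 42 members, as they did for 26.6% of all genes.

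Among entry genes, cyclin E1 (Ccne1, chr7:38097984-38107490) had 5.49, 5.65 and 4.89 FPKM in 6-week fibrotic skin, against 1.24, 1.45 and 0.907 FPKM in normal skin. The groups were far apart, and Ccne1 had the largest log2 fold change of the 48 members, 1.54 (SE 0.26, limma adjusted p = 0.00197). E2f8 had 8.71, 13.9 and 10.2 FPKM in 6-week fibrotic skin and 3.77, 3.46 and 3.64 FPKM in normal skin. Its normal values were tight and its fibrotic values spread, with a log2 fold change of 1.35 (SE 0.23, limma adjusted p = 0.00211).

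The D cyclins went opposite ways. Cyclin D1 (Ccnd1, chr7:144929931-144939831), the sensor of growth signals in many epithelia, had 48.3, 49.2 and 40.8 FPKM in 6-week fibrotic skin, against 24.0, 22.3 and 21.1 FPKM in normal skin. It rose by 1.0 on the log2 scale (SE 0.10, limma adjusted p = 0.000175). Cyclin D2 (Ccnd2, chr6:127125162-127152188) had 30.7, 21.6 and 34.7 FPKM in 6-week fibrotic skin, against 42.9, 41.9 and 47.8 FPKM in normal skin. It was the member that fell, with a log2 fold change of -0.61 (SE 0.20, limma adjusted p = 0.0319). That call was lost without either of the fibrotic replicates 1 and 2 and without any of the normal libraries, with log2 fold changes of -0.67, -0.42, -0.63, -0.65 and -0.56. The kinase Cdk2 did not pass the test, at 20.9 ± 1.0 FPKM in 6-week fibrotic skin and 22.0 ± 1.13 FPKM in normal skin (SD, n = 3 each).

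Among replication genes, the helicase subunit Mcm5 had the largest log2 fold change. It had 13.8, 13.8 and 15.5 FPKM in 6-week fibrotic skin, against 7.01, 6.07 and 4.80 FPKM in normal skin. No normal library came near the fibrotic ones, and the change was 1.16 (SE 0.24, limma adjusted p = 0.00492). Mcm3 had 14.9, 17.7 and 17.9 FPKM in 6-week fibrotic skin and 8.93, 7.37 and 6.85 FPKM in normal skin. Mcm2 had 11.2, 15.2 and 13.9 FPKM in 6-week fibrotic skin and 7.13, 5.84 and 5.79 FPKM in normal skin. Both rose, by 1.04 and 0.99 on the log2 scale, and so did Mcm4 by 0.88. Mcm6 and Mcm7, which belong to the same ring, had log2 fold changes of 0.40 and 0.43 that did not pass the test.

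Rrm2, the regulated subunit of ribonucleotide reductase (chr12:24708254-24714146), had 33.8, 40.0 and 38.2 FPKM in 6-week fibrotic skin and 16.9, 19.0 and 16.8 FPKM in normal skin. It rose by 1.05 on the log2 scale, while its partner Rrm1 had 0.59 and did not pass. Pcna had 91.9, 103 and 104 FPKM in 6-week fibrotic skin and 67.3, 72.2 and 78.5 FPKM in normal skin. Its groups did not overlap, but the log2 fold change of 0.45 (SE 0.19) had a limma adjusted p of 0.0871. In a limma fit of the 6 libraries of these groups, with replicate numbers as a block, the adjusted p was 0.0153. The loading factors Cdt1 and Cdc6 rose by 0.87 and 0.81, and Cdc45, Tyms and Gins2 by 0.57, 0.47 and 0.38.

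Among mitosis genes, Birc5 (survivin, chr11:117849237-117855743), a subunit of the chromosomal passenger complex, had 40.7, 46.4 and 53.9 FPKM in 6-week fibrotic skin, against 14.4, 16.6 and 17.3 FPKM in normal skin. Its log2 fold change of 1.48 (SE 0.32, limma adjusted p = 0.00556) was the largest of the mitosis genes. Cdc20 had 36.5, 39.8 and 46.8 FPKM in 6-week fibrotic skin and 14.9, 21.2 and 14.4 FPKM in normal skin. The mitotic kinase Plk1 had 10.0, 9.65 and 13.7 FPKM in 6-week fibrotic skin and 3.74, 4.83 and 4.14 FPKM in normal skin. These rose by 1.25 and 1.20 on the log2 scale. Cdk1 had 18.0, 18.8 and 25.4 FPKM in 6-week fibrotic skin and 8.77, 10.1 and 8.39 FPKM in normal skin. Cdk1 rose by 1.09 (SE 0.30, limma adjusted p = 0.0159).

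Several well-known proliferation markers did not pass the test at 6 weeks in the fit of all libraries. Mki67, the gene of the Ki-67 antigen, had 27.2, 29.5 and 41.4 FPKM in 6-week fibrotic skin and 15.7, 21.3 and 16.9 FPKM in normal skin. Its groups did not overlap, yet the log2 fold change of 0.82 (SE 0.30) had a limma adjusted p of 0.0543. In the limma fit of the 6 libraries of these groups, with replicate numbers as a block, the adjusted p was 0.0219. Top2a had 28.8, 28.1 and 45.3 FPKM in 6-week fibrotic skin and 19.8, 25.4 and 18.2 FPKM in normal skin. Replicate 2 of normal skin came close to the lower fibrotic libraries, and the log2 fold change was 0.64 (SE 0.37, limma adjusted p = 0.183). In the limma fit of 6 libraries with the block, Top2a did not pass either (adjusted p = 0.0835). Cyclin B1 (Ccnb1), the partner of Cdk1, had 26.7, 26.2 and 39.7 FPKM in 6-week fibrotic skin and 14.0, 18.6 and 15.8 FPKM in normal skin. Its log2 fold change was 0.88 (SE 0.34, limma adjusted p = 0.0621, or 0.0192 in the fit of 6 libraries with the block). In each of these genes replicate 3 of the fibrotic skin was the highest.

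Ttk, which was singled out after its values were seen, was the mitosis gene with a log2 fold change below 0 (-0.20, SE 0.23). It had 8.59, 9.90 and 14.3 FPKM in 6-week fibrotic skin and 11.6, 13.0 and 12.8 FPKM in normal skin, and the groups overlapped. Cenpf, a centromere protein, and Nusap1, a spindle protein, were also chosen after their values were seen, with log2 fold changes of 0.09 and 0.06 that did not pass. The other mitosis genes that rose were Mybl2, Ube2c, Cenpa, Aurka, Ccnb2, Bub1, Tpx2, Aurkb, Ncapg and Cenpe, by 0.83 to 1.10 on the log2 scale.

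The count of 27 was 13 without 6-week replicate 3 and 14 without normal replicate 3. In a fit of these 6 libraries alone it was 35, and with replicate numbers added to that fit as a block it was 33. Against the fit of all libraries, the block fit added Mki67, Ccnb1, Ccna2, Bub1b, Pcna, Mcm6 and Rrm1 and lost Gins2. With library totals made equal it was 16, the median of all genes moved to -0.36, and the members' median stood 0.90 above it, against 0.87 as deposited.

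**Figure D2:**
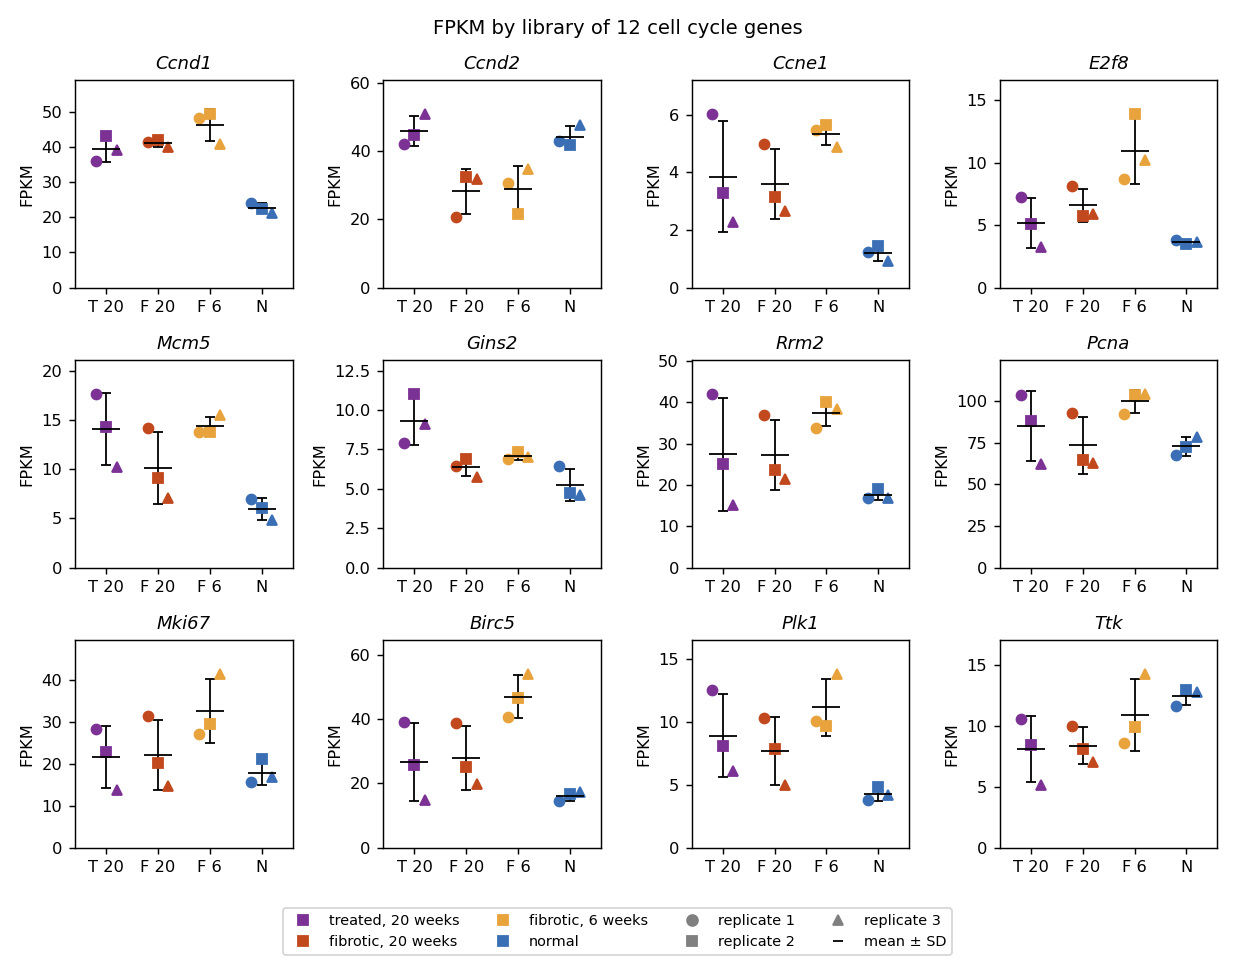
FPKM (y axis, from 0) of 12 genes in the treated 20-week (T 20), fibrotic 20-week (F 20), fibrotic 6-week (F 6) and normal (N) libraries; symbols are replicates, and bars are the mean and SD of 3 libraries. Ccnd1 and Ccne1 lie above normal skin in all 9 other libraries, and Ccnd2 lies below all normal libraries in the 6 untreated fibrotic ones.

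In 20-week fibrotic against normal skin, 4 members were called, all of them entry genes. Ccne1, Ccnd1 and E2f8 rose and Ccnd2 fell, while 0 of 14 replication genes and 0 of 27 mitosis genes were called in limma. At an unadjusted p under 0.05, 2 replication genes and 5 mitosis genes passed, beside 45.7% of all genes. Of all tested genes 15.3% rose and 18.2% fell. The median member changed by 0.33 on the log2 scale (0.12 without 20-week fibrotic replicate 1 and 0.52 without its replicate 3), against -0.04 for the median gene. By role the medians were 0.23 for entry, 0.29 for replication and 0.34 for mitosis genes, and 11 members had groups that did not overlap upward, beside 25.1% of all genes.

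Ccnd1 had 41.4, 41.8 and 39.9 FPKM in 20-week fibrotic skin, against 24.0, 22.3 and 21.1 FPKM in normal skin. The 3 fibrotic libraries were nearly equal, and the log2 fold change was 0.84 (SE 0.10, limma adjusted p = 0.000585). Ccne1 had 4.97, 3.15 and 2.66 FPKM in 20-week fibrotic skin and 1.24, 1.45 and 0.907 FPKM in normal skin, a log2 fold change of 1.04 (SE 0.26, limma adjusted p = 0.0141). E2f8 had 8.09, 5.72 and 5.89 FPKM in 20-week fibrotic skin and 3.77, 3.46 and 3.64 FPKM in normal skin, a log2 fold change of 0.70 (SE 0.23, limma adjusted p = 0.0427). All 3 genes had groups that did not overlap. Over the 12 fits with 1 library left out, the call was lost in 8 for E2f8, 2 for Ccne1 and 0 for Ccnd1.

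Ccnd2 had 20.6, 32.3 and 31.7 FPKM in 20-week fibrotic skin, against 42.9, 41.9 and 47.8 FPKM in normal skin. It fell by 0.66 on the log2 scale (SE 0.20, limma adjusted p = 0.0287). Mki67 had 31.4, 20.2 and 14.8 FPKM in 20-week fibrotic skin and 15.7, 21.3 and 16.9 FPKM in normal skin. Replicate 1 was above the normal range and replicate 3 below it, and the log2 fold change was 0.24 (SE 0.30, limma adjusted p = 0.576). Pcna had 92.8, 64.3 and 62.8 FPKM in 20-week fibrotic skin and 67.3, 72.2 and 78.5 FPKM in normal skin, again with replicate 1 the highest and replicate 3 the lowest, and a log2 fold change of -0.01. Ttk, at 10.0, 8.10 and 7.02 FPKM in 20-week fibrotic skin, lay below all normal libraries without passing the test (log2 fold change -0.53, SE 0.23, limma adjusted p = 0.103).

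The count of 3 genes that rose was 1 without 20-week fibrotic replicate 1, 5 without its replicate 3 and 1 without normal replicate 3, and 9 and 7 without treated replicates 1 and 3, which are in the same fit. Replication and mitosis genes were among the calls of those fits, with Mcm5, Cdc6, Birc5 and Cdc20 called in both of the fits without a treated library and Mcm5, Cdc20 and Plk1 without fibrotic replicate 3. The fall of Ccnd2 was not called without 20-week fibrotic replicate 1 or any normal library, and with equal totals the members' median was 0.03 while that of all genes was -0.32.

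In 20-week against 6-week fibrotic skin, all 48 log2 fold changes were below 0, and 0 were called in limma. Under some alternatives Ccnd2, Kif23 and Nusap1 lay above 0, by up to 0.16, 0.02 and 0.01. Few genes of any kind were called in this comparison: 5 of 13761, or 0.0363%. At an unadjusted p under 0.05, 8 of 48 members and 2737 of 13761 genes (19.9%) passed. The median member changed by -0.42 on the log2 scale, against 0.02 for the median gene. It was -0.67 without 20-week fibrotic replicate 1 and -0.26 without its replicate 3. Role medians were -0.19 for entry, -0.42 for replication and -0.43 for mitosis genes. The groups did not overlap for 7 members, all lower at 20 weeks, beside 13.0% of all genes.

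Birc5 stood at the low end, with 38.8, 25.1 and 19.7 FPKM at 20 weeks, against 40.7, 46.4 and 53.9 FPKM at 6 weeks. All its 20-week libraries were below the 6-week ones, and the log2 fold change was -0.78 (SE 0.32, limma adjusted p = 0.212). Cdt1 was next, with 6.37, 5.32 and 3.48 FPKM at 20 weeks and 7.71, 11.9 and 8.14 FPKM at 6 weeks, a log2 fold change of -0.77 (limma adjusted p = 0.102). Ccnd1 and Ccnd2 were near the other end, with log2 fold changes of -0.16 and -0.04. The 95% interval of the difference was -0.38 to 0.06 for Ccnd1 and -0.48 to 0.40 for Ccnd2.

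The comparison of treated with fibrotic skin at 20 weeks sets skin labelled as treated beside skin with no treatment named. None of the 4 groups is labelled as a control transplant, so the cells and the procedure cannot be told apart. Of the 48 members 2 rose, Ccnd2 and Gins2, and 0 fell in limma, beside 4.45% of all genes that rose and 10.9% that fell. At an unadjusted p under 0.05, 5 members passed, beside 34.7% of all genes, and 4 members lay above all fibrotic libraries, beside 13.0% of all genes. The mitosis genes had a median log2 fold change of -0.00 with 13 of 27 above 0, but this median was -0.24 without treated replicate 1, 0.29 without treated replicate 3, 0.29 without fibrotic replicate 1, -0.19 without fibrotic replicate 3 and 0.28 with library totals made equal. The replication genes had a median of 0.32 with 11 of 14 above 0 (0.16 without fibrotic replicate 3), and the entry genes a median of 0.06. The difference between these roles was not tested.

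Ccnd2 had 42.0, 44.8 and 50.8 FPKM in treated skin, against 20.6, 32.3 and 31.7 FPKM in 20-week fibrotic skin. The groups were apart, and the log2 fold change was 0.71 (SE 0.20, limma adjusted p = 0.0393). The treated values overlapped the normal ones, with a log2 fold change against normal skin of 0.05 and a 95% interval of -0.39 to 0.49. Gins2, a GINS subunit (chr8:120581266-120589075), had 7.87, 11.0 and 9.09 FPKM in treated skin and 6.47, 6.87 and 5.76 FPKM in 20-week fibrotic skin. Its log2 fold change was 0.48 (SE 0.14, limma adjusted p = 0.0433).

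E2f1, an activating E2F, had 5.31, 5.18 and 4.28 FPKM in treated skin and 3.77, 3.47 and 2.47 FPKM in 20-week fibrotic skin. The groups did not overlap, but the log2 fold change of 0.49 (SE 0.16) had a limma adjusted p of 0.0615. Mcm3 had the largest value among replication genes, 0.53 (SE 0.26, limma adjusted p = 0.173), from 20.0, 16.5 and 9.95 FPKM in treated skin and 13.9, 10.2 and 7.01 FPKM in 20-week fibrotic skin. The treated and the fibrotic libraries overlapped widely in this gene. Mki67 had 28.3, 22.9 and 13.7 FPKM in treated skin and 31.4, 20.2 and 14.8 FPKM in 20-week fibrotic skin. Its log2 fold change was -0.03, with a 95% interval of -0.70 to 0.65 that leaves room for sizeable changes either way.

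The calls of Ccnd2 and Gins2 depended on single libraries. Over the 12 fits with 1 library left out, the call was lost in 9 for Ccnd2 and 10 for Gins2. Neither was called without treated replicate 2 or 3, any 20-week fibrotic replicate, 6-week replicate 1 or normal replicate 2. When library totals were made equal, the median gene stood at 0.25. Then 11 members rose, namely Ccnd2, Cdk2, E2f1, Cdt1, Cdc45, Gins2, Mcm2, Mcm3, Mcm5, Mcm7 and Pcna, and over all genes the split of higher to lower calls was 2406 to 686 in place of 612 to 1496.

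**Figure D3:**
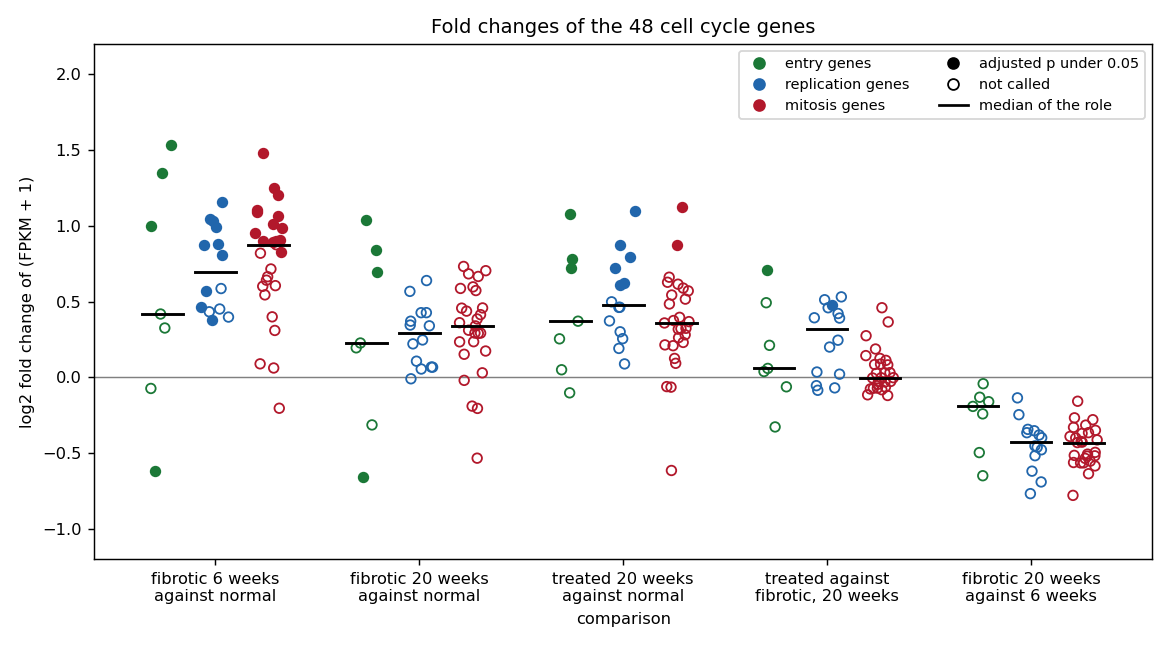
Log2 fold change of FPKM + 1 (y axis) of the 48 genes in the 5 comparisons (x axis), coloured by role; filled points had a limma adjusted p under 0.05, and black lines are role medians. Filled points of all 3 roles are frequent at 6 weeks, the 4 filled points for fibrotic skin at 20 weeks are entry genes, and all points of 20-week against 6-week fibrotic skin lie below 0.

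In treated against normal skin, 11 of the 48 members rose and 0 fell in limma, beside 7.57% of all genes that rose and 13.2% that fell. By role these were 3 of 7 entry genes, 6 of 14 replication genes and 2 of 27 mitosis genes. The median member changed by 0.37 on the log2 scale (0.17 without treated replicate 1 and 0.63 without its replicate 3), against -0.06 for the median gene. The groups did not overlap upward for 13 members, beside 14.0% of all genes. This comparison shares its normal libraries with those of fibrotic skin, and its treated libraries with the one above.

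Ccnd1 had 36.0, 43.1 and 39.0 FPKM in treated skin, against 24.0, 22.3 and 21.1 FPKM in normal skin, a log2 fold change of 0.78 (SE 0.10, limma adjusted p = 0.00222). Ccne1 had 6.02, 3.28 and 2.27 FPKM in treated skin and 1.24, 1.45 and 0.907 FPKM in normal skin, a log2 fold change of 1.08 (SE 0.26, limma adjusted p = 0.0200). The fold of Ccnd1 was even over the treated libraries and that of Ccne1 uneven. E2f1 had 5.31, 5.18 and 4.28 FPKM in treated skin and 3.29, 2.65 and 1.94 FPKM in normal skin, a log2 fold change of 0.72 (SE 0.16, limma adjusted p = 0.0147). E2f8 was not called, at 7.25, 5.07 and 3.26 FPKM in treated skin, where replicate 3 was below the normal libraries.

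Of the replication genes, Mcm5 had 17.6, 14.4 and 10.3 FPKM in treated skin, against 7.01, 6.07 and 4.80 FPKM in normal skin. All treated libraries were above the normal ones, with a log2 fold change of 1.10 (SE 0.24, limma adjusted p = 0.0138). Mcm3, Mcm2, Gins2, Cdt1 and Cdc45 also rose, by 0.88, 0.79, 0.73, 0.62 and 0.61 on the log2 scale. Mcm2 had 13.6, 12.9 and 8.72 FPKM in treated skin and Gins2 had 7.87, 11.0 and 9.09 FPKM there, against 7.13, 5.84 and 5.79 FPKM and 6.43, 4.72 and 4.59 FPKM in normal skin. Rrm2, which had risen at 6 weeks, had 41.9, 25.1 and 15.0 FPKM in treated skin and 16.9, 19.0 and 16.8 FPKM in normal skin. Its treated values lay on both sides of the normal ones, and it was not called (log2 fold change 0.50, SE 0.31).

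Of the mitosis genes, Mybl2 and Plk1 rose. Mybl2 (chr2:163054327-163084688) had 6.17, 2.75 and 3.13 FPKM in treated skin, against 1.49, 1.25 and 0.914 FPKM in normal skin, a log2 fold change of 1.13 (SE 0.27, limma adjusted p = 0.0189). Plk1 had 12.5, 8.10 and 6.08 FPKM in treated skin and 3.74, 4.83 and 4.14 FPKM in normal skin, a log2 fold change of 0.87 (SE 0.27, limma adjusted p = 0.0453). Birc5 had 39.1, 25.6 and 14.9 FPKM in treated skin and Cdk1 had 19.9, 14.6 and 8.67 FPKM, and both overlapped the normal libraries. Ttk had 10.6, 8.46 and 5.19 FPKM in treated skin, below all normal libraries, with a log2 fold change of -0.61 (SE 0.23) and a limma adjusted p of 0.0857.

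The count of 11 was 2 without normal replicate 3, 6 without normal replicate 2 or treated replicate 1 or 2, and 7 without normal replicate 1. In a fit of these 6 libraries alone it was 1, Ccnd1.

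The spread inside the groups was itself a main feature of these genes. The median SD of the members' log2 values was 0.481 in treated skin, 0.404 in 20-week fibrotic skin, 0.259 in 6-week fibrotic skin and 0.149 in normal skin. Over all tested genes it was 0.239 in treated skin, 0.148 in 20-week fibrotic skin, 0.142 in 6-week fibrotic skin and 0.148 in normal skin. Mitosis genes spread most, with a median ratio of highest to lowest library of 2.12 in treated skin, 2.03 in 20-week fibrotic skin, 1.5 in 6-week fibrotic skin and 1.31 in normal skin. For replication genes the ratios were 1.63 in treated skin, 1.67 in 20-week fibrotic skin, 1.25 in 6-week fibrotic skin and 1.17 in normal skin. For entry genes they were 1.39 in treated skin, 1.53 in 20-week fibrotic skin, 1.15 in 6-week fibrotic skin and 1.14 in normal skin.

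The genes moved together from library to library. In treated skin, replicate 1 was the highest library for 41 of 48 members (39.8% of all genes) and replicate 3 the lowest for 44 (40.7% of all genes). In 20-week fibrotic skin, replicate 1 was the highest for 45 members (40.3% of all genes) and replicate 3 the lowest for 45 (29.5% of all genes). In 6-week fibrotic skin, replicate 3 was the highest for 38 members, among them all 27 mitosis genes (39.3% of all genes). In normal skin, replicate 2 was the highest for 25 of the 27 mitosis genes (33.6% of all genes). Members that vary together in this way are not independent of each other.

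Scores by library show this. The score is the mean log2(FPKM + 1) of a role's genes minus its mean in normal skin. For mitosis genes it was 0.82, 0.43 and -0.16 in treated skin, 0.79, 0.25 and -0.10 in 20-week fibrotic skin, 0.57, 0.61 and 1.12 in 6-week fibrotic skin, and -0.09, 0.18 and -0.09 in normal skin. For replication genes it was 0.79, 0.64 and 0.15 in treated skin, 0.62, 0.22 and -0.01 in 20-week fibrotic skin, 0.59, 0.77 and 0.80 in 6-week fibrotic skin, and 0.04, -0.02 and -0.02 in normal skin. For entry genes it was 0.64, 0.49 and 0.22 in treated skin, 0.41, 0.28 and 0.18 in 20-week fibrotic skin, 0.53, 0.59 and 0.58 in 6-week fibrotic skin, and 0.08, -0.00 and -0.07 in normal skin. Replicate 3 of both 20-week groups thus stood below the normal mean in mitosis genes, while replicate 1 stood near the 6-week libraries.

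Without the replicates 3 of both 20-week groups, an alternative chosen after seeing the data, 12 members rose in 20-week fibrotic and 20 in treated skin against normal skin. Of all 13761 genes, 1840 and 776 rose in these 2 comparisons. The added calls of members were in replication and mitosis genes, such as Mcm4, Birc5 and Cdc20 in both. Without the replicates 1 of both groups, also chosen after seeing the data, 2 members rose in 20-week fibrotic and 8 in treated skin against normal skin. Beside these, 2191 and 1171 of all 13761 genes rose.

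Markers of other cells moved with these genes in part. The 8 wound keratinocyte markers summed to 10199, 1478 and 1236 FPKM in treated skin, 15613, 9412 and 5451 FPKM in 20-week fibrotic skin, 17321, 24269 and 10890 FPKM in 6-week fibrotic skin, and 612, 613 and 428 FPKM in normal skin. They were highest in replicate 1 and lowest in replicate 3 of both 20-week groups, as the cell cycle genes were, but lowest in replicate 3 at 6 weeks, where the mitosis genes were highest. The 15 hair matrix and shaft markers summed to 1955, 341 and 4280 FPKM in treated skin, 406, 246 and 184 FPKM in 20-week fibrotic skin, 1261, 931 and 1765 FPKM in 6-week fibrotic skin, and 26.9, 439 and 157 FPKM in normal skin. Their highest library was also that of the mitosis genes in 20-week fibrotic skin (replicate 1), 6-week fibrotic skin (replicate 3) and normal skin (replicate 2), whereas in treated skin they were highest in replicate 3, where the mitosis genes were lowest. The 9 macrophage markers in the table, of 10 listed, summed to 242 to 290 FPKM in treated skin, 373 to 410 FPKM in 20-week fibrotic skin, 332 to 870 FPKM in 6-week fibrotic skin and 115 to 235 FPKM in normal skin. They too were highest in replicate 1 of both 20-week groups. No marker in these 3 sums was listed at 0 in any library.

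Other marker lists ran otherwise in whole or in part, given here as scores of the same kind. Adipocyte markers scored -0.64, 0.97 and 1.93 in treated skin and -1.34, -0.65 and -0.50 in 20-week fibrotic skin. Endothelial markers scored -0.90, 0.63 and 1.04 in treated skin and -0.40, -0.30 and 0.21 in 20-week fibrotic skin. Skeletal muscle markers scored -3.44, -0.14 and 0.61 in treated skin and -1.02, 0.19 and 1.07 in 20-week fibrotic skin. These 3 lists were lowest in replicate 1 and highest in replicate 3 of both 20-week groups, the reverse of the cell cycle scores. Suprabasal keratinocyte markers (5 of 8 listed, the others being listed at 0 in a library or not used here) scored 0.34, -0.54 and -1.18 in treated skin, in step with the cell cycle scores, and 1.04, 1.01 and 0.99 in 20-week fibrotic skin. Basal keratinocyte markers scored -0.50, -0.08 and -0.26 in treated skin, -0.55, -0.32 and -0.83 in 20-week fibrotic skin and -0.62, -0.64 and -0.76 in 6-week fibrotic skin. Of these 8 basal markers 2 rose and 5 fell in 6-week fibrotic against normal skin, beside 17.6% and 21.7% of all genes. Krt14 was the highest and Krt15 the lowest in log2 fold change, at 2.05 and -3.18. T cell markers scored 0.89, -0.16 and -0.21 in treated skin, in step with the cell cycle scores. In 20-week fibrotic skin they scored 0.57, 0.36 and 0.54, with replicate 2 the lowest. Fibroblast markers scored -0.09, 0.67 and 0.42 in treated skin and 0.10, 0.56 and -0.59 in 20-week fibrotic skin. They scored 1.13, 0.68 and 0.18 in 6-week fibrotic skin and -0.15, 0.48 and -0.33 in normal skin. Fibroblast markers were thus lowest in replicate 3 at 6 weeks, where the mitosis genes were highest, and highest in replicate 2 of normal skin, as the mitosis genes were. The part of any of these cells in the cell cycle results was not tested.

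**Figure D4:**
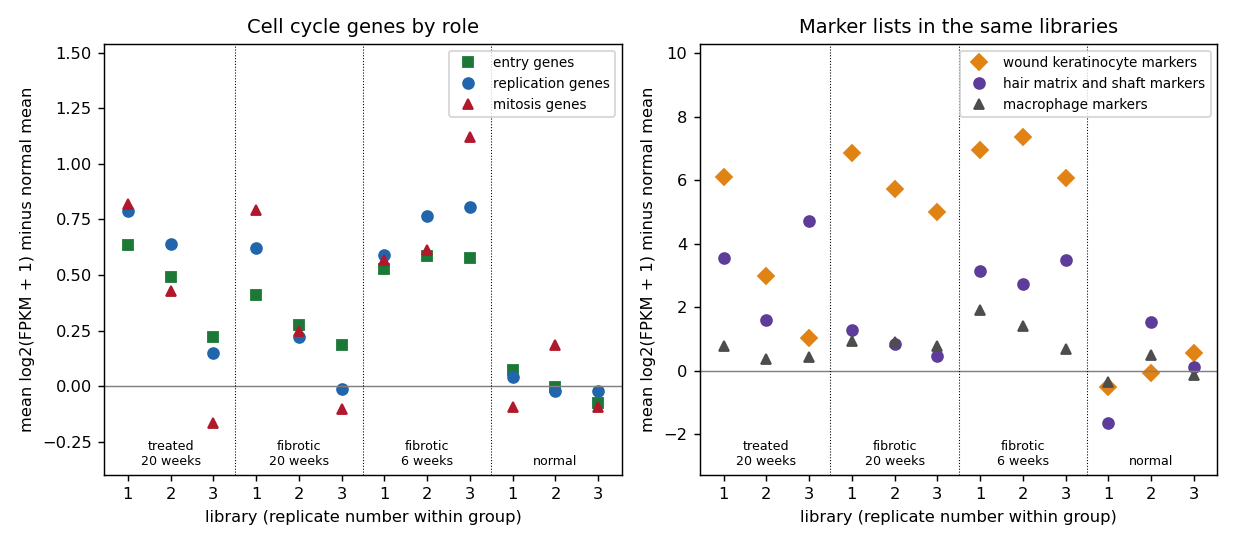
Scores by library, as mean log2(FPKM + 1) minus the normal mean (y axes): left, the entry, replication and mitosis genes; right, 3 marker lists, on a wider scale. In both 20-week groups cell cycle scores are highest in replicate 1 and lowest in replicate 3, as are those of wound keratinocyte markers. Macrophage markers, at 0.37 to 0.93 there, are also highest in replicate 1 of both groups but lowest in replicate 2 of treated skin.

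Further genes of the same pathways were read from lists of known function. Of 38 other replication genes, 14 rose and 0 fell in 6-week fibrotic against normal skin, with a median log2 fold change of 0.44, beside 17.6% of all genes that rose and 21.7% that fell. The leading ones were geminin (Gmnn), which restrains Cdt1, with 26.6 ± 5.10 FPKM in 6-week fibrotic skin and 8.41 ± 0.785 FPKM in normal skin, and Dbf4, the activator of Cdc7 kinase, with 14.3 ± 2.33 FPKM in 6-week fibrotic skin and 4.89 ± 0.364 FPKM in normal skin (SD, n = 3 each). In 20-week fibrotic against normal skin 3 rose, led by Tk1 and Timeless, and Cdc7 fell, beside 15.3% and 18.2% of all genes; without fibrotic replicate 1 or normal replicate 3 none of the 3 was called. In treated against 20-week fibrotic skin 5 rose and 0 fell, led by the DNA polymerase delta subunits Pold1 and Pold2, with log2 fold changes of 0.83 and 0.75 (limma adjusted p = 0.0428 and 0.0151), beside 4.45% and 10.9% of all genes. Without 20-week fibrotic replicate 3, and in the fit of these 6 libraries alone, 0 rose in limma, and 15 rose with library totals made equal. Pold1 had 4.10, 4.81 and 5.55 FPKM in treated skin, against 2.54, 2.10 and 2.18 FPKM in 20-week fibrotic skin. In treated against normal skin 9 rose, led by Tk1 and Uhrf1, beside 7.57% of all genes; it was 3 without normal replicate 3, 4 without normal replicate 2 or treated replicate 2, and 0 in the fit of these 6 libraries in limma.

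Of 48 other mitosis genes, 47 were tested. In 6-week fibrotic against normal skin 18 rose and 0 fell, with a median log2 fold change of 0.67, led by Cdkn3 and securin (Pttg1) at 1.28 and 1.07, beside the same 17.6% and 21.7% of all genes. The count was 7 or 8 without 6-week replicate 2 or 3 or normal replicate 1 or 3. Gtse1 alone rose in 20-week fibrotic against normal skin, beside 15.3% of all genes. In treated against normal skin 3 rose, led by Gtse1 and Cks1b, beside 7.57% of all genes. In treated against 20-week fibrotic skin 0 were called, beside 4.45% of all genes that rose and 10.9% that fell. At an unadjusted p under 0.05, 1 passed in that comparison, beside 34.7% of all genes. In 20-week against 6-week fibrotic skin 0 of the other replication genes and 0 of the other mitosis genes were called in limma, while 16 other replication genes and 9 other mitosis genes passed an unadjusted p under 0.05, beside 19.9% of all genes.

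Of 15 inhibitors of the cycle 2 rose and 3 fell in treated skin (7.57% and 13.2% of all genes), 4 rose and 3 fell in 20-week fibrotic skin (15.3% and 18.2%), and 2 rose and 3 fell in 6-week fibrotic skin (17.6% and 21.7%), each against normal skin. The cyclin-dependent kinase inhibitor Cdkn1b fell in all 3: it had 34.6, 34.2 and 36.1 FPKM in treated skin, 29.8, 34.0 and 33.4 FPKM in 20-week fibrotic skin, and 28.3, 31.0 and 36.5 FPKM in 6-week fibrotic skin, against 59.8, 57.3 and 60.4 FPKM in normal skin. All 9 other libraries were far below the normal ones. Its log2 fold change against normal skin was -0.74 in treated skin (limma adjusted p = 0.00251), -0.85 in 20-week fibrotic skin (limma adjusted p = 0.000565) and -0.88 in 6-week fibrotic skin (limma adjusted p = 0.000286). Wee1, the kinase that holds Cdk1 inactive, and Rbl2, a retinoblastoma relative, fell in all 3 as well.

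Cdkn2a, the locus of the Ink4a and Arf inhibitors, was close to 0 in normal skin. It had 14.7, 8.71 and 2.88 FPKM in treated skin, 8.01, 22.0 and 22.0 FPKM in 20-week fibrotic skin, 5.02, 10.7 and 9.0 FPKM in 6-week fibrotic skin, and 0.0583, 0.254 and a listed 0 in normal skin. It was called higher in all 3 comparisons with normal skin, and no fold is given. The related inhibitor Cdkn2b had 27.0, 16.2 and 13.2 FPKM in treated skin, 33.2, 34.7 and 38.8 FPKM in 20-week fibrotic skin, 26.7, 32.9 and 32.8 FPKM in 6-week fibrotic skin, and 17.1, 20.5 and 20.2 FPKM in normal skin. It rose in both fibrotic groups against normal skin, by 0.85 at 20 weeks and 0.65 at 6 weeks, the call at 6 weeks being lost without any one of the normal libraries or 6-week replicate 2 or 3.

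In treated against 20-week fibrotic skin 0 inhibitors rose and 5 fell: Cdkn2b, Tob1, Btg2, Btg1 and Rb1, beside 4.45% and 10.9% of all genes. None of the 5 was called without treated replicate 2 or 3, without 20-week fibrotic replicate 1 or 3 or in the fit of these 6 libraries, and with library totals made equal 3 inhibitors rose and Cdkn2b alone fell. Cdkn2b had the largest log2 fold change of these, -0.94 (SE 0.21, limma adjusted p = 0.0223). Tob1, of the same antiproliferative family as Btg1 and Btg2, had 53.3, 37.1 and 44.9 FPKM in treated skin and 72.5, 75.4 and 81.7 FPKM in 20-week fibrotic skin, with a log2 fold change of -0.76 (SE 0.16, limma adjusted p = 0.0190). The groups were apart in both genes.

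Of 19 other regulators of entry, 5 rose and 1 fell in treated skin (7.57% and 13.2% of all genes), 3 rose and 4 fell in 20-week fibrotic skin (15.3% and 18.2%), and 8 rose and 2 fell in 6-week fibrotic skin (17.6% and 21.7%), each against normal skin. With library totals made equal the count at 6 weeks was 5 higher and 6 lower. Cdc25a, a phosphatase that activates cyclin-dependent kinases, fell in all 3, by 0.37 in treated, 0.85 in 20-week fibrotic and 0.48 in 6-week fibrotic skin on the log2 scale; in treated skin the call was lost without most single libraries. In treated against 20-week fibrotic skin 4 rose and 1 fell (4.45% and 10.9% of all genes), but none was called without treated replicate 3 or fibrotic replicate 3. Mycn, a Myc family factor, had 5.54, 5.93 and 5.15 FPKM in treated skin, against 1.31, 1.67 and 1.84 FPKM in 20-week fibrotic skin, a log2 fold change of 1.33 (SE 0.29, limma adjusted p = 0.0213). Cyclin D3 (Ccnd3) had 28.8, 21.4 and 28.9 FPKM in treated skin and 17.2, 17.5 and 16.1 FPKM in 20-week fibrotic skin, and rose by 0.60 on the log2 scale (limma adjusted p = 0.0336). Lin9, a subunit of the DREAM and Myb complexes, fell by 0.77 on the log2 scale there.

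Some values could hold reads of neighbouring genes, since the strand setting of the counting is not given in the sources used here. By GENCODE M21, 18 members share exon bases with another gene, 16 of them on the opposite strand. Ube2c overlaps Tnnc2, a muscle troponin with 12.9 to 1287 FPKM over the libraries, and Ccnd2 overlaps 2 antisense genes. Ube2c was at 18.6 to 57.8 FPKM. Whether its values hold reads of Tnnc2 was not tested. For 4 members, Ccnb1, Ccnb2 and Pcna among them, a named pseudogene exists that could take or lend reads.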

How the data were processed

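Per the labels, polyadenylated RNA of macrodissected skin (250 ng each, integrity number above 8.0) was made into stranded libraries and sequenced paired-end for 101 cycles, in pools of 5; which library was in which pool is not given. The authors deposited 1 table of FPKM values. The submitters' processing notes name Cufflinks 2.2.1, TopHat2 2.0.13 and Bowtie2 2.2.3 with assembly mm10, and cutadapt 1.7.1 among other tools. What each tool did, and which gene models were used, is not given in the sources used here. Depth behind each value is unknown.

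FPKM + 1 was taken to log2 and fitted with limma 3.58.1 (R 4.3.3), with an intensity trend, in a single fit of the 12 libraries with a mean per group. The 2-sided p-values of each of the 5 comparisons were adjusted over 13761 genes (Benjamini-Hochberg), and calls were made below 0.05. The fit assumes an equal spread in all groups. With 3 libraries a side the smallest exact permutation p is 0.1, so that test was not used. The script was tested on simulated data.

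Members, lists and roles were chosen with earlier results of these data known, so counts over them are descriptions and have no p-value of their own. Values by library are given for Mki67, Top2a, Ccnd1, Ccnd2, Mcm2, Pcna, Cdk1 and Ccnb1, for the called members of each role with the largest fold changes (up to 3 per comparison), and for a few others said to be chosen after their values were seen; other lists name up to 2 called genes per direction, and further genes of them were chosen after their values were seen. Same-numbered libraries of 6-week fibrotic and normal skin deviated together over all genes, with correlations of 0.159, 0.227 and 0.108 (0.392, -0.544 and -0.0952 over the members), so a fit of these 6 libraries with the number as a block was added after seeing the data; the labels do not say what a number stands for. Alternatives were another pseudocount, 2 filters, 2 scalings, the libraries compared only, weights per group, replicate numbers as a block and each library left out.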

Additional observations from a re-analysis of the deposited data

How the results depend on the processing

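No member called in any comparison changed its direction under any alternative, and of the calls 13 of 28 (6-week fibrotic against normal), 1 of 4 (20-week fibrotic against normal), 0 of 2 (treated against 20-week fibrotic) and 2 of 11 (treated against normal skin) held whichever library was left out. With each library left out in turn, members that rose numbered 13 to 31, 1 to 9, 0 to 2 and 2 to 16 in these 4 comparisons, and members that fell 0 to 1, 0 to 3, 0 and 0 to 1; all genes called numbered 3502 to 6551, 3028 to 5812, 3 to 5216 and 904 to 3098, and 4 to 550 in 20-week against 6-week fibrotic skin, where 0 members were called. With no filter 0 members rose in treated against 20-week fibrotic skin, and with a mean of at least 5 FPKM 33 genes were called in 20-week against 6-week skin. With equal totals 16 members rose and 2 fell in 6-week fibrotic and 3 fell in 20-week fibrotic against normal skin, 11 rose in treated against 20-week fibrotic skin, and 2 genes were called between the fibrotic groups; over all genes the split of higher to lower calls became 1257 to 5853 at 6 weeks (2427 to 2982 as deposited) and 1076 to 5334 at 20 weeks (2102 to 2503 as deposited). With the 6 libraries compared only, 3 members fell in 20-week fibrotic against normal skin, 478 genes were called between the fibrotic groups, 0 members and 3 genes in treated against 20-week fibrotic skin, and 1 member and 138 genes in treated against normal skin. With weights per group, 9 members rose and 3 fell in 20-week fibrotic against normal skin, 1 member fell among 859 genes called between the fibrotic groups, 0 members rose among 1204 genes called in treated against 20-week fibrotic skin, and 5 rose among 1311 genes called in treated against normal skin. Between the other groups the replicate numbers did not meet the test for pairs (correlations of same-numbered libraries over all genes of -0.35 to 0.291), although over the 48 members the treated and 20-week fibrotic libraries correlated by 0.737, 0.0159 and 0.619; with the replicate block in the fit of 12 libraries 1 member rose among 1365 genes called in treated against 20-week fibrotic skin. Without both 20-week replicates 1, an alternative chosen after seeing the data, 1 member fell among 461 genes called between the fibrotic groups, 1 rose among 3955 in treated against 20-week fibrotic skin and 1 fell in treated against normal skin. Without both 20-week replicates 3, likewise chosen later, 12 members rose in 20-week fibrotic and 20 in treated against normal skin (1773 genes called), and 0 members among 6 genes in treated against 20-week fibrotic skin. The cause of these shifts was not tested. Leaving out a library leaves 2 in its group, which is assumed to vary like the others. The unknown depth limits the members near 1 FPKM most: Ccne2, Cdc6, Ccne1 and Mybl2 in normal skin.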
